A study of Mus musculus with 6 samples.

Results

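The 10 genes described here are ligands, regulators and targets of the WNT pathway in the liver lobule: Wnt2, Wnt9b, Rspo3, Rnf43, Znrf3, Lgr5, Axin2, Nkd1, Tcf7l2 and Lect2. They were matched by symbol in a count table of 54532 mouse genes, and all 10 passed the filter on low counts that left 13706 genes for testing. The libraries came from the liver of mice aged 5 weeks. In all, 3 libraries are labelled Fam210aHKO, with Fam210a knocked out in hepatocytes, and 3 are labelled Ctrl. The Cre driver, the floxed allele, the strain, the sex and anything else the controls carry are unstated in the labels. FAM210A is a protein of mitochondria, and the comparison shows how the liver of juvenile animals differs when hepatocytes lose it.

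In the liver lobule, endothelial cells of the central vein secrete WNT2, WNT9B and R-spondin 3. WNT binding stabilises β-catenin in neighbouring hepatocytes, which works with the factor TCF7L2 to switch on pericentral genes such as Glul and Cyp2e1. R-spondins act by taking the ubiquitin ligases RNF43 and ZNRF3, which would otherwise remove WNT receptors, off the cell surface through the receptors LGR4 and LGR5. Axin2, Nkd1, Rnf43, Znrf3 and Lgr5 are themselves switched on by the pathway, and several of them feed back to dampen it.

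Each library had 12541465 to 19655235 counts, and the smallest count of any of the 10 genes in a library was 14. Fam210a itself had 31.7, 28.6 and 44.2 CPM in Fam210aHKO, against 119, 136 and 162 CPM in Ctrl, where CPM are counts scaled by TMM factors to a total of 1000000 per library (log2 fold change -1.99, SE 0.194, edgeR adjusted p = 4.42e-05). The genotype labels of Fam210aHKO replicates 2 and 3 carry other gene numbers, so the groups follow the sample titles. Fam210aHKO replicate 1 stood apart by mitochondrial ribosomal RNA, with 1579 CPM of mt-Rnr2 against at most 32.3 CPM in the other libraries. The labels do not say that each library is a separate animal, so p-values measure the spread between these libraries. Scaling by library totals alone moved the median log2 fold change of all tested genes up by 0.45 from its value under TMM, so each change is a difference from the bulk of genes.

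Of the 10 genes, 2 fell and 0 rose in Fam210aHKO at an adjusted p under 0.05 (edgeR quasi-likelihood test, Benjamini-Hochberg over all tested genes). They were Rnf43, at 52.5% of the Ctrl level, and Tcf7l2, at 63.8%. Calls in either direction made up 27.5% of all tested genes, with 14.0% higher and 13.5% lower, so calls were no more frequent among these genes than among all genes. The same 2 genes had an unadjusted p under 0.05. The median log2 fold change of the 10 was -0.10, against 0.02 for all tested genes. Without overlap in CPM between Fam210aHKO and Ctrl were 4 of the 10 (Rnf43, Znrf3, Rspo3 and Tcf7l2), against 42.7% of all tested genes. With library totals the calls became 0 lower and 2 higher, and the genes called higher were Znrf3 and Rspo3.

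**Figure D1:**
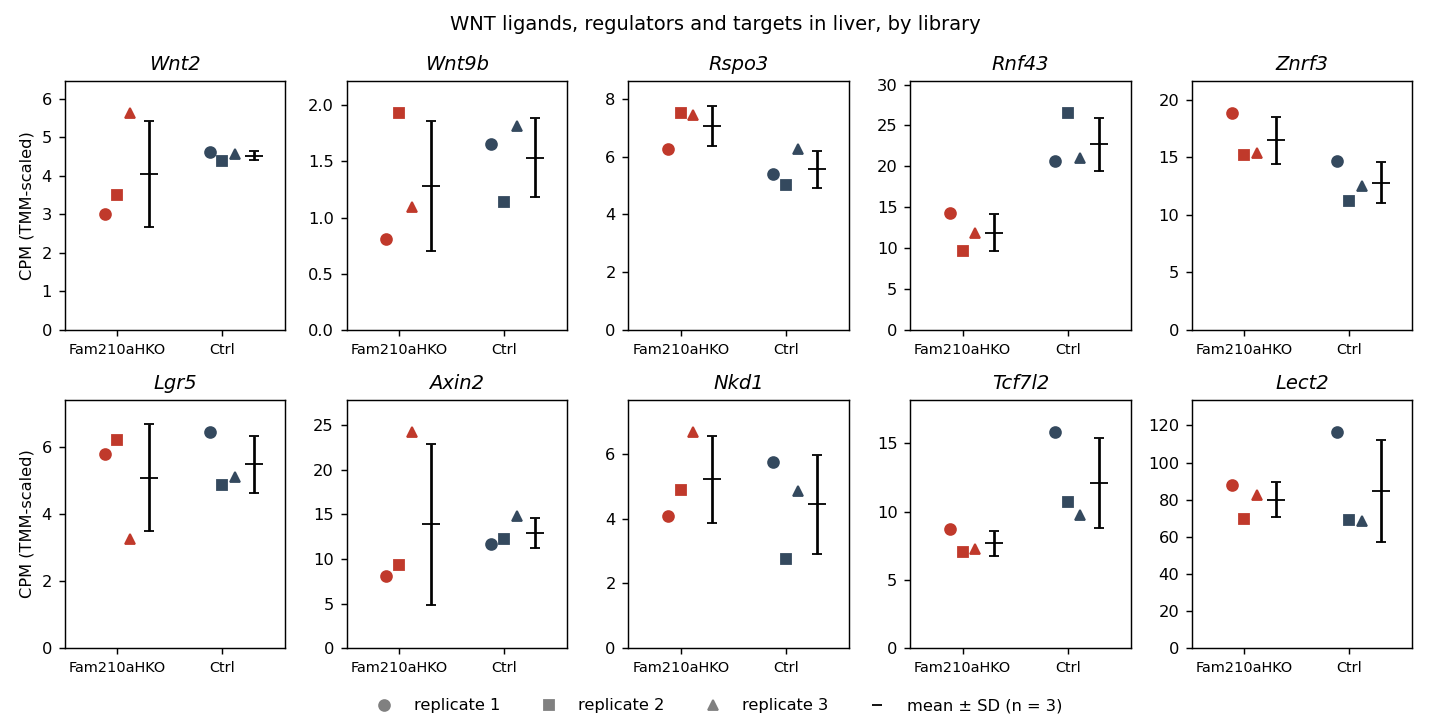
TMM-scaled CPM of each gene in each library, Fam210aHKO left and Ctrl right. Symbols mark replicate numbers, and black bars give mean ± SD of 3 libraries. Rnf43 and Tcf7l2 lie lower in all Fam210aHKO libraries than in all Ctrl libraries, and the Axin2 value of Fam210aHKO replicate 3 lies at 24.2 CPM, above the other 5 libraries.

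The ligands of the central vein did not pass the test. Wnt2 (ENSMUSG00000010797, chr6:17988940-18030585, mm10, minus strand), the main WNT of the adult central vein with Wnt9b, had 3.01, 3.51 and 5.61 CPM in Fam210aHKO, against 4.61, 4.38 and 4.57 CPM in Ctrl. The Ctrl libraries lay close together and inside the range of the Fam210aHKO libraries, of which replicate 3 was the highest. The log2 fold change was -0.15 (SE 0.267, 95% interval -0.74 to 0.43, edgeR adjusted p = 0.711). Wnt9b (ENSMUSG00000018486, chr11:103727364-103749821, minus strand) had 0.813, 1.93 and 1.10 CPM in Fam210aHKO, against 1.65, 1.14 and 1.81 CPM in Ctrl. These levels rest on 17, 28 and 25 counts in Fam210aHKO and 19, 14 and 27 counts in Ctrl, and the groups overlapped. The interval of its log2 fold change ran from -1.16 to 0.55 around -0.30 (edgeR adjusted p = 0.603), so a change of 2-fold downward lay within it. Both genes turned to a positive log2 fold change with library totals, 0.30 for Wnt2 and 0.14 for Wnt9b.

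Rspo3 (ENSMUSG00000019880, chr10:29452416-29535867, minus strand), the R-spondin that sustains pericentral gene expression, had 6.27, 7.50 and 7.46 CPM in Fam210aHKO, against 5.39, 5.03 and 6.25 CPM in Ctrl. Every Fam210aHKO library was above every Ctrl library, by a narrow margin between Fam210aHKO replicate 1 and Ctrl replicate 3. The log2 fold change of 0.34 (SE 0.201, 95% interval -0.10 to 0.79) did not pass (edgeR adjusted p = 0.232), and it was 0.79 and called with library totals (edgeR adjusted p = 0.0102). Its direction was positive under all 16 alternatives tried.

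Ligand mRNA in whole liver depends on how many endothelial cells the tissue holds, and in bulk RNA fewer cells of a type and less RNA per cell cannot be told apart. Of 13 pan-endothelial markers 0 were called by edgeR, Ptprb and Kdr included (log2 fold change -0.45 and -0.32), with 13 of 13 log2 fold changes negative and a median of -0.31. DESeq2 and limma-voom also called 0, 2 had an unadjusted p under 0.05, and 4 were lower in the fit with a replicate block. Without Fam210aHKO replicate 3 the median was -0.50 and 4 were lower, Ptprb and Kdr among them (edgeR adjusted p = 0.0199 and 0.0396). Leaving out the other libraries one at a time gave 0 or 1 lower, and the filter on CPM and the fit on protein-coding genes gave 1 each. Their summed level was 271 to 435 CPM in Fam210aHKO and 381 to 472 CPM in Ctrl, and none was at 0. The other markers of central vein endothelium had 0 of 6 called by edgeR, DESeq2 or limma-voom, 0 with an unadjusted p under 0.05, and a median of -0.47, among them Fabp4 (11.4 ± 1.30 and 13.8 ± 2.80 CPM in Fam210aHKO and Ctrl, SD, n = 3 each) and Kit (7.34 ± 1.41 and 10.2 ± 2.24 CPM). The summed level of these central vein markers, with the untested Rab3b, was 27.5 to 37.3 CPM in Fam210aHKO and 38.3 to 40.6 CPM in Ctrl, without overlap. With Wnt2, Wnt9b and Rspo3 included the sums overlapped, at 37.6 to 51.5 CPM in Fam210aHKO and 48.9 to 53.2 CPM in Ctrl. The pan-endothelial and central vein medians moved to 0.14 and -0.03 with library totals, and 1 of the 6 central vein markers was then called higher.

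Set against the summed counts of the pan-endothelial markers in the same library, a ratio that needs no scaling between libraries, Rspo3 came to 2.31%, 2.44% and 1.71% of that sum in Fam210aHKO, against 1.41%, 1.19% and 1.32% in Ctrl. All Fam210aHKO libraries were above all Ctrl libraries, the mean log2 difference was 0.71, and the two-sided exact permutation p of 0.1 is the smallest that 3 against 3 libraries allow. A lower marker sum also raises this ratio, and the sum was 271 to 435 CPM in Fam210aHKO and 381 to 472 CPM in Ctrl. Rspo3 by itself had a log2 fold change of 0.34 and was not called, so 0.71 is not the change of Rspo3 alone. Wnt2 came to 1.11%, 1.14% and 1.29% in Fam210aHKO and 1.21%, 1.03% and 0.969% in Ctrl (log2 difference 0.15, exact permutation p = 0.3). Wnt9b overlapped widely, with a log2 difference of 0.03 (exact permutation p = 1.0). Stellate cells also express Rspo3, and their markers had a median log2 fold change of 0.30, with 1 of 14 called higher and summed levels of 571 to 745 CPM in Fam210aHKO and 475 to 548 CPM in Ctrl. The part of either cell type in the Rspo3 values was not tested.

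**Figure D2:**
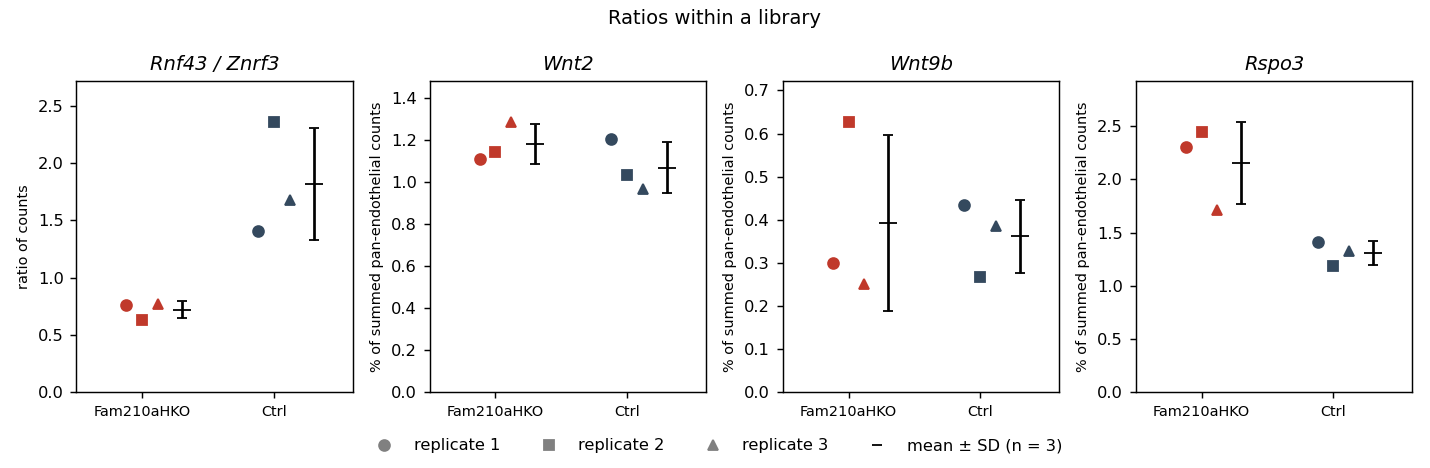
Ratios within each library, Fam210aHKO left and Ctrl right, with mean ± SD of 3 libraries. The left panel gives Rnf43 counts over Znrf3 counts, and the others give each ligand as a percentage of the summed counts of 13 pan-endothelial markers. The groups separate for Rnf43 over Znrf3 and for Rspo3.

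Of the ligase genes, Rnf43 fell and Znrf3 did not pass the test. Rnf43 (ENSMUSG00000034177, chr11:87662722-87735539, plus strand) had 14.3, 9.63 and 11.8 CPM in Fam210aHKO, against 20.7, 26.5 and 21.0 CPM in Ctrl. All Fam210aHKO libraries were below all Ctrl libraries, and Ctrl replicate 2 was the highest. It fell by 0.93 on the log2 scale (SE 0.191, 95% interval -1.35 to -0.51, edgeR adjusted p = 0.00432). The call held under 15 of 16 alternatives, the exception being library totals (log2 fold change -0.47, edgeR adjusted p = 0.0620). An intronic transcript on the same strand, 1110028F11Rik, had 34 counts in the 3 Fam210aHKO libraries and 30 in the 3 Ctrl libraries.

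Znrf3 (ENSMUSG00000041961, chr11:5276324-5444847, minus strand) had 18.8, 15.2 and 15.4 CPM in Fam210aHKO, against 14.7, 11.2 and 12.5 CPM in Ctrl. Here every Fam210aHKO library was above every Ctrl library. The log2 fold change of 0.36 (SE 0.177, 95% interval -0.03 to 0.75) did not pass (edgeR adjusted p = 0.154), but with library totals it was 0.81 and called (edgeR adjusted p = 0.00611). The ratio of Rnf43 to Znrf3 counts within a library, chosen after the values were seen and so given without a test, was 0.758, 0.633 and 0.769 in Fam210aHKO, against 1.41, 2.36 and 1.68 in Ctrl. Per length of gene model the ratio averaged 0.867 ± 0.0908 in Fam210aHKO and 2.19 ± 0.592 in Ctrl (SD, n = 3 each). Rnf43 was thus the more abundant of the pair in all Ctrl libraries and the less abundant in all Fam210aHKO libraries.

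Among the receptors for R-spondin, Lgr5 did not pass while Lgr4 fell. Lgr5 (ENSMUSG00000020140, chr10:115450311-115587780, minus strand), a marker of the hepatocytes next to the central vein, had 5.79, 6.19 and 3.25 CPM in Fam210aHKO, against 6.43, 4.87 and 5.11 CPM in Ctrl. The groups overlapped, and Fam210aHKO replicate 3 was the lowest of the 6 libraries. A gene on the opposite strand, A930009A15Rik, had 7 counts in Fam210aHKO and 5 in Ctrl. The log2 fold change of Lgr5 was -0.11 (SE 0.271, 95% interval -0.71 to 0.48, edgeR adjusted p = 0.795), and it turned to 0.34 with library totals and to 0.13 without Fam210aHKO replicate 3. Lgr4, the family member that hepatocytes express throughout the lobule, had 29.0, 21.1 and 28.0 CPM in Fam210aHKO, against 60.8, 51.5 and 66.2 CPM in Ctrl (log2 fold change -1.19, SE 0.169, edgeR adjusted p = 0.000478).

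Axin2, a scaffold of the complex that degrades β-catenin and the most used readout of the pathway, differed between Fam210aHKO libraries. The gene (ENSMUSG00000000142, chr11:108920349-108950783, plus strand) had 8.13, 9.29 and 24.2 CPM in Fam210aHKO, against 11.7, 12.3 and 14.8 CPM in Ctrl. Fam210aHKO replicates 1 and 2 lay below all Ctrl libraries and replicate 3 above them. The log2 fold change was 0.11 (SE 0.352, 95% interval -0.67 to 0.88, edgeR adjusted p = 0.851). Without Fam210aHKO replicate 3 it was -0.57 (edgeR adjusted p = 0.0631), and it was also negative with the replicate number as a block (-0.05) and with limma-voom (-0.04). The summed pan-endothelial markers were 435 CPM in Fam210aHKO replicate 3 and 271 and 307 CPM in replicates 1 and 2. Their part in the Axin2 value was not tested.

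Nkd1 (ENSMUSG00000031661, chr8:88521354-88594884, plus strand), which binds Dishevelled and dampens the signal, had 4.07, 4.88 and 6.67 CPM in Fam210aHKO, against 5.74, 2.76 and 4.84 CPM in Ctrl. The groups overlapped, with a log2 fold change of 0.23 (SE 0.297, 95% interval -0.42 to 0.89, edgeR adjusted p = 0.607). Sp5, a transcription factor that the pathway switches on, had 0.718, 0.826 and 3.38 CPM in Fam210aHKO and 1.22, 0.893 and 1.75 CPM in Ctrl. Tbx3, a pericentral transcription factor, had 17.6, 7.57 and 26.9 CPM in Fam210aHKO and 29.3, 24.0 and 23.1 CPM in Ctrl. It did not pass (log2 fold change -0.55, edgeR adjusted p = 0.267). Without Fam210aHKO replicate 3 it was called lower (log2 fold change -1.01, edgeR adjusted p = 0.0337). Of the 10 tested feedback targets, Fam210aHKO replicate 3 was the highest knockout library for 4 (Axin2, Nkd1, Sp5 and Zfp703), replicate 1 for 4 (Rnf43, Znrf3, Notum and Tcf7) and replicate 2 for 2 (Lgr5 and Tnfrsf19). The tested genes whose log2 CPM profile over the 6 libraries was nearest to that of Axin2 were Sp140, Apold1 and Ptprm, at root-mean-square distances of 0.135, 0.147 and 0.154, against a median of 0.599 for all tested genes. These 3 were picked as the nearest, so distances below the median were fixed by that choice.

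Tcf7l2 (ENSMUSG00000024985, chr19:55741810-55933654, plus strand), the TCF factor that carries β-catenin to hepatocyte genes, fell. It had 8.75, 7.09 and 7.24 CPM in Fam210aHKO, against 15.8, 10.7 and 9.75 CPM in Ctrl. The groups did not overlap, and Ctrl replicate 1 was the highest. The log2 fold change was -0.65 (SE 0.220, 95% interval -1.13 to -0.16), with an edgeR adjusted p of 0.0490. This call lay at the threshold and held under 8 of 16 alternatives. It was lost with limma-voom (adjusted p = 0.0616), and in edgeR with no filter, upper-quartile scaling and library totals (adjusted p = 0.0667, 0.0541 and 0.494). In edgeR it was also lost without Ctrl replicate 1 or 2 or Fam210aHKO replicate 2 or 3 (adjusted p = 0.188, 0.0502, 0.141 and 0.103). Ppnr, a transcript within an intron on the same strand, had 2 counts in the 3 Fam210aHKO libraries and 31 in the 3 Ctrl libraries, and reads of both genes may not be fully told apart.

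Lect2 (ENSMUSG00000021539, chr13:56542464-56548502, minus strand), a secreted hepatocyte protein whose gene β-catenin activates, was the most abundant of the 10 per length. It had 88.0, 69.4 and 82.6 CPM in Fam210aHKO, against 116, 69.1 and 68.6 CPM in Ctrl. The groups overlapped, and Ctrl replicate 1 stood above the other 5 libraries. The log2 fold change was -0.08 (SE 0.208, 95% interval -0.54 to 0.38, edgeR adjusted p = 0.808), and without Ctrl replicate 1 it was 0.21 (edgeR adjusted p = 0.399).

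**Figure D3:**
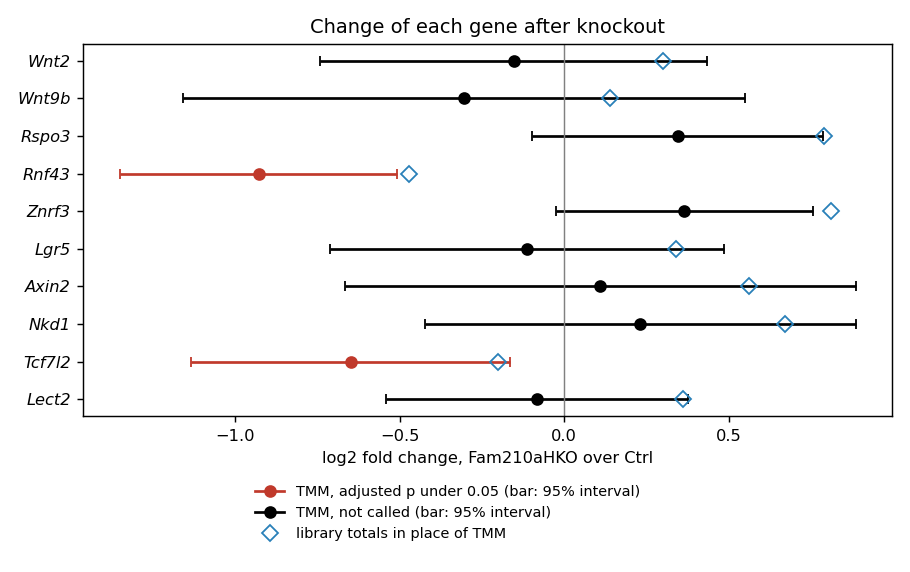
Log2 fold change of each gene, Fam210aHKO over Ctrl. Circles give the TMM-scaled edgeR fit with its 95% interval, red where the adjusted p is under 0.05, and diamonds give the value with library totals. The intervals of Rnf43 and Tcf7l2 lie below 0, and library totals move every gene to the right by about 0.45.

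The levels per length also place the genes among themselves. These levels carry no TMM factor, so they rank genes within a group and are not compared between groups. As TPM computed from the counts and gene lengths of the table, Lect2 stood at 228 ± 30.6 in Fam210aHKO and 188 ± 66.6 in Ctrl (SD, n = 3 each), far above the rest. Next came Axin2 in Fam210aHKO, at 6.94 ± 5.20 TPM, and Rnf43 in Ctrl, at 6.99 ± 0.437 TPM, which was separate from the gene after it in Ctrl only. Rnf43 was in position 6 in Fam210aHKO, at 4.71 ± 0.595 TPM. In Fam210aHKO the ranges of neighbours overlapped from Axin2 down to Tcf7l2, which was separate from Lgr5 after it. In Ctrl they overlapped from Axin2 down to Lgr5, which was separate from Wnt9b. Wnt9b was the lowest in both groups, at 0.765 ± 0.401 TPM in Fam210aHKO and 0.700 ± 0.211 TPM in Ctrl.

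The promoter sequences show where the 10 genes carry letters that TCF factors recognise close to the start. RefSeq promoters (GRCm38.p6, 250 bases before to 50 after a start) were found for 7 of the 10 genes, 9 promoters in all. Znrf3, Lgr5 and Rspo3 were not among them. The letters CTTTGA or CTTTGT, searched on both strands, occurred in 2 of these 9 promoters, against 31.2% of all 32851 promoters (16.0% for CTTTGA and 18.7% for CTTTGT). The matches, which did not overlap each other, were CTTTGA in Lect2, on the strand opposite to the gene, 31 bases before the start, and CTTTGT in the second Tcf7l2 promoter, on the strand of the gene, 14 bases before the start. No match stood in the promoters of Axin2, Nkd1, Wnt2 and Wnt9b or in both promoters of Rnf43. Below are the 2 promoters with a match and, for comparison, that of Sp5, which held 5 matches, a number that 12 promoters (0.0365%) reach. Each is written 5′ to 3′ on the strand of the gene, with matches in capitals.
Lect2 (chr13:56548489-56548788, minus strand): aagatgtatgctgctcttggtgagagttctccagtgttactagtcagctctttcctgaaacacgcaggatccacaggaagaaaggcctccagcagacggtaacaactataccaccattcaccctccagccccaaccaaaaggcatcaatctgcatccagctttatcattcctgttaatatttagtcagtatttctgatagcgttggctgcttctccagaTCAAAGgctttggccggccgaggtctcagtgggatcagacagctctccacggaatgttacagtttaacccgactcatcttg
Tcf7l2 (chr19:55895071-55895370, plus strand): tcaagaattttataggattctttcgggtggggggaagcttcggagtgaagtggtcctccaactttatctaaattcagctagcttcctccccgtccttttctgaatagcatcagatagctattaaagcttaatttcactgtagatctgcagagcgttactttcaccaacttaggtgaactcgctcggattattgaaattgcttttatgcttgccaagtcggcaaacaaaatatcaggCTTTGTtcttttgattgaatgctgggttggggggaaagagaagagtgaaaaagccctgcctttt
Sp5 (chr2:70474673-70474972, plus strand): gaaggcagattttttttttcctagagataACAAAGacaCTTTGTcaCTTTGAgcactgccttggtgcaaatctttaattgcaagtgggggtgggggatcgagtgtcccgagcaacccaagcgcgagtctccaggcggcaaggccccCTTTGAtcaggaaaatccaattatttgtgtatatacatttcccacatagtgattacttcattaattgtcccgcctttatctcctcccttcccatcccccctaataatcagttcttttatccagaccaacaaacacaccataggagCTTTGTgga
Such a match is a description of the letters.

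The other genes of the pathway were read as lists against the 27.5% of all tested genes that were called (14.0% higher and 13.5% lower). Among WNT ligands, R-spondins and the factors that secrete them, 9 of 25 passed the filter, 1 rose and 0 fell, with a median log2 fold change of 0.19 (0.64, with 3 higher, under library totals). Without Fam210aHKO replicate 1 the list had 2 lower and a median of 0.01, and without replicate 3 its median was -0.14. In addition 1 was lower with the replicate block, with no filter and without Ctrl replicate 2. The ligand that rose was Wnt4, with 14.6, 17.3 and 8.77 CPM in Fam210aHKO, against 2.61, 1.30 and 1.41 CPM in Ctrl (log2 fold change 2.94, SE 0.333, edgeR adjusted p = 0.000116). All its Fam210aHKO libraries were above all its Ctrl libraries, and the lowest of them was replicate 3. Of the 16 ligands outside the filter, 8 had 0 counts in all libraries, and the highest count was 14, of Wnt2b.

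Among 16 tested receptors 1 rose and 2 fell, with a median of -0.14. With library totals 5 were higher and 2 lower, with a median of 0.31, and with the replicate block 1 was higher and 4 lower. Without Fam210aHKO replicate 3 the median was -0.38 with 3 lower, and without Ctrl replicate 1 it was -0.18 with 0 higher and 3 lower. Beside Lgr4, Fzd8, a frizzled receptor, fell to 5.71 ± 1.77 CPM in Fam210aHKO, against 13.5 ± 1.77 CPM in Ctrl (log2 fold change -1.23, edgeR adjusted p = 0.00366). Ptk7, a pseudokinase that acts with frizzled receptors, rose to 2.15 ± 0.683 CPM in Fam210aHKO, against 0.745 ± 0.226 CPM in Ctrl (edgeR adjusted p = 0.0118; 0.0522 without Ctrl replicate 1). The co-receptor Lrp6 (104 ± 17.7 and 117 ± 23.3 CPM in Fam210aHKO and Ctrl) and Fzd4 (30.5 ± 4.50 and 42.8 ± 10.1 CPM) did not pass. Fzd4 was called lower without Ctrl replicate 1 and with the replicate block (edgeR adjusted p = 0.0405 and 0.0190).

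Of 19 tested genes of the β-catenin destruction complex and its regulators 1 rose and 0 fell, with a median of 0.21. With library totals 12 rose. Ctnnb1, which encodes β-catenin, had 194, 193 and 192 CPM in Fam210aHKO, against 142, 170 and 190 CPM in Ctrl, and did not pass (log2 fold change 0.21, SE 0.148, edgeR adjusted p = 0.334), but with library totals it was called higher (log2 fold change 0.66, edgeR adjusted p = 0.00627). The gene that rose was the casein kinase Csnk1e, at 8.43 ± 0.329 CPM in Fam210aHKO and 5.00 ± 1.40 CPM in Ctrl (edgeR adjusted p = 0.0309). That call was lost without Ctrl replicate 2 or 3 or Fam210aHKO replicate 1 or 2 (edgeR adjusted p = 0.0836, 0.133, 0.0617 and 0.0854). With the replicate block 5 genes of this list were higher and 1 lower.

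TCF/LEF factors and their partners had 1 of 18 higher and 2 lower, with a median of -0.13 (0.32 with library totals). Tcf7, another TCF gene, best known from T cells, rose to 9.76 ± 0.807 CPM in Fam210aHKO, against 3.27 ± 0.510 CPM in Ctrl (log2 fold change 1.58, SE 0.210, edgeR adjusted p = 0.000321). The co-repressor Tle2 fell to 1.33 ± 0.382 CPM in Fam210aHKO, against 4.14 ± 1.11 CPM in Ctrl (edgeR adjusted p = 0.00331). With the replicate block 2 of these genes were higher and 4 lower. The other feedback targets of the pathway, outside the 10 genes, had 2 of 5 higher (Tnfrsf19 and Tcf7) and 1 lower (Notum), with a median of 0.37 that was -0.35 without Fam210aHKO replicate 3. Tnfrsf19, a receptor of the TNF family, rose to 15.3 ± 2.42 CPM in Fam210aHKO, against 4.15 ± 1.14 CPM in Ctrl (log2 fold change 1.89, edgeR adjusted p = 0.000216).

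Secreted antagonists had 2 of 5 higher and 1 lower, with a median of -0.13 (0.32, with 0 lower, under library totals). Dkk3, a divergent member of the dickkopf family, rose to 6.04 ± 0.828 CPM in Fam210aHKO, against 2.02 ± 0.153 CPM in Ctrl (edgeR adjusted p = 0.000616). Frzb, a frizzled-related protein, rose to 4.06 ± 0.873 CPM in Fam210aHKO, against 1.97 ± 0.421 CPM in Ctrl (edgeR adjusted p = 0.0157; 0.0778 without Ctrl replicate 3 and 0.0509 without Fam210aHKO replicate 3). Notum, the enzyme that strips WNT proteins of their lipid, fell to 10.7 ± 3.18 CPM in Fam210aHKO, against 18.8 ± 5.11 CPM in Ctrl (edgeR adjusted p = 0.0383). It was not called with library totals (edgeR adjusted p = 0.285) or without Ctrl replicate 1 or 3 or Fam210aHKO replicate 2 (0.148, 0.0578 and 0.122).

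Many metabolic genes of the pericentral zone fell. Of the 31 listed pericentral genes outside the 10, 16 fell and 4 rose, with a median of -0.55 (-0.10, with 8 lower and 7 higher, under library totals). Of the 6 pericentral genes among the 10 (Lect2, Lgr5, Axin2, Rnf43, Znrf3 and Nkd1) only Rnf43 was called. The difference between these 2 sets was not tested. Glul, glutamine synthetase, the enzyme of the innermost hepatocytes, had 620, 365 and 538 CPM in Fam210aHKO, against 1152, 677 and 1132 CPM in Ctrl (log2 fold change -0.96, edgeR adjusted p = 0.0167). The groups did not overlap, but the call was lost with library totals (edgeR adjusted p = 0.130) and without Ctrl replicate 1 or 3 or Fam210aHKO replicate 2 (0.0619, 0.0588 and 0.0673).

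Cyp2e1, a cytochrome P450 of the same zone, fell to 3360 ± 593 CPM in Fam210aHKO, against 10107 ± 1803 CPM in Ctrl (log2 fold change -1.59, edgeR adjusted p = 0.00363). Oat, ornithine aminotransferase, fell to 719 ± 110 CPM in Fam210aHKO, against 1374 ± 271 CPM in Ctrl (edgeR adjusted p = 0.00749; 0.0914 with library totals). Cyp1a2, by contrast, stood at 330 ± 32.5 CPM in Fam210aHKO and 383 ± 111 CPM in Ctrl (log2 fold change -0.22, edgeR adjusted p = 0.493). The largest changes of the list were in multigene families whose copies may share reads, from Mup17 (log2 fold change -8.90) and Cyp2c54 (-2.69) to Gstm3 (108 ± 17.1 and 6.80 ± 4.97 CPM in Fam210aHKO and Ctrl) and Cyp2a4 (6.79). Cyp27a1, a sterol hydroxylase, fell by 1.47 on the log2 scale.

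Genes of the opposite, periportal end of the lobule also fell. Of 26 periportal genes 15 fell and 2 rose, with a median of -1.10 (-0.65, with 13 lower and 3 higher, under library totals). DESeq2 gave 19 lower and the replicate block 18. Hal, which degrades histidine, had 176 ± 30.7 CPM in Fam210aHKO and 798 ± 17.0 CPM in Ctrl, and Cyp2f2, a cytochrome P450, 197 ± 17.5 and 787 ± 82.4 CPM. Sds, serine dehydratase, had 25.9 ± 6.55 CPM in Fam210aHKO and 137 ± 22.4 CPM in Ctrl. Those that rose were the apolipoprotein gene Apoa4 (1.33) and Aldh1b1 (1.06). General hepatocyte markers had 6 of 10 lower and 0 higher, Serpina1a, Cebpa and Apoa1 among the lower. Library totals gave 5 lower and 1 higher, limma-voom and the replicate block 8 lower each, and DESeq2 9 lower and 1 higher. Summed levels of these markers were 97674 to 121430 CPM in Fam210aHKO and 159850 to 241840 CPM in Ctrl. The part of general hepatocyte expression in the values of either zone was not tested.

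**Figure D4:**
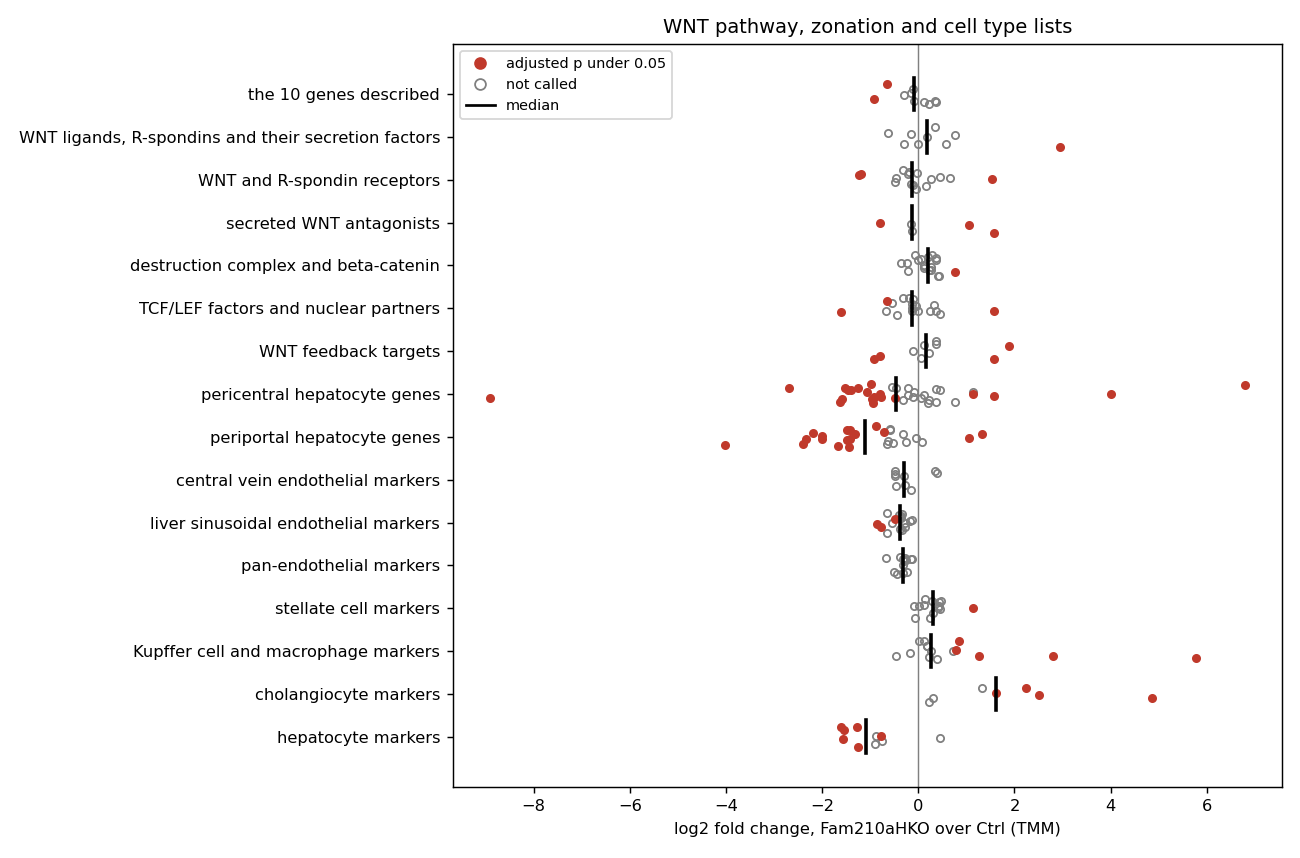
Log2 fold change (Fam210aHKO over Ctrl, TMM) of each tested gene in the lists, 1 row per list. Filled points have an adjusted p under 0.05, open points do not, and black bars are list medians. The 10 genes described have a median of -0.10, with 4 log2 fold changes positive and 6 negative. The pericentral row, which also holds Lect2, Lgr5, Axin2, Rnf43, Znrf3 and Nkd1, has a median of -0.46, with 13 positive and 24 negative. The periportal row has a median of -1.10, with 3 positive and 23 negative. Differences between rows were not tested.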

How the data were processed

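Poly-A RNA libraries of mouse liver were compared, 3 Fam210aHKO and 3 Ctrl, grouped by sample title. The authors deposited raw counts, 1 whole number per gene and library. Per the submitters' processing notes reads went through FastQC, Trimmomatic, STAR and featureCounts, with DESeq2 also listed, on build mm10. No source used here states versions, the strand setting or how multimapping reads were handled. The gene lengths in the deposited table were used for TPM. The authors' FPKM table was not used here.

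Libraries held 12541465 to 19655235 counts, and 3 counts were 0.132 to 0.261 CPM. Spread between replicates exceeded counting error (common biological coefficient of variation 0.196). Genes were kept by filterByExpr (minimum count 10), scaled by TMM and tested with the edgeR 4.0.16 quasi-likelihood F test in R 4.3.3, two-sided, with group as the only factor, and adjusted by Benjamini-Hochberg over all 13706 tested genes. A call was an adjusted p under 0.05. Standard errors come from the F statistic, as |log2 fold change|/√F, and 95% intervals use them with the test's degrees of freedom. Ratios within a library were compared by a two-sided exact permutation test of their log2 values. The procedure was tested on simulated data.

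Tried instead were library totals, upper-quartile or median-of-ratios scaling, keeping all genes or those over 1 CPM in 3 libraries, limma-voom (limma 3.58.1), DESeq2 1.42.0, the legacy robust quasi-likelihood test, protein-coding genes only, each library left out, and the replicate number as a block. Same-numbered libraries of both groups deviated together from their group means (correlations 0.245, 0.182 and 0.155, against -0.141 to -0.0262 for other pairs). Deviations within a group sum to 0, so these correlations depend on each other and cannot show that the samples are paired. The main fit ignores the replicate numbers, and the block is an alternative only. Over all genes the block gave 2434 higher and 2462 lower calls, against 1922 and 1852 in the main fit. The replicate numbers come from the titles, and no source used here says what a number stands for.

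The 10 genes and all lists were chosen with earlier results of these data known. All 10 genes are described. Each list names its called genes of smallest p, at most 3 for the commoner direction and 2 for the rarer, or its 2 most abundant genes where none was called. For Axin2 the 3 nearest profiles, each centred on its own mean, are named; those for Rspo3 are not reported here. Fixed in addition were Glul, Cyp2e1, Cyp1a2, Oat, Ctnnb1, Lgr4, Lrp6, Fzd4, Tbx3 and Fam210a. Sp5 and Zfp703 were named after their values were seen.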

Additional observations from a re-analysis of the deposited data

How the results depend on the processing

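Calls for the 10 genes depended on scaling and on Tcf7l2, which lies at the threshold. The genes called lower numbered 2 as reported, 1 with upper-quartile scaling, no filter or limma-voom, 0 with library totals, and 1 to 2 when single libraries were left out. The genes called higher numbered 0, except for 2 with library totals. Over the 10 genes and 16 alternatives, 136 of 160 log2 fold changes kept their direction and their side of the threshold, and 13 changed sign, none of them called before or after. With library totals the log2 fold changes were 0.34 for Lgr5, 0.36 for Lect2, 0.30 for Wnt2 and 0.14 for Wnt9b. Axin2 was at -0.04 with limma-voom and -0.05 with the replicate block. When single libraries were left out, log2 fold changes ranged from -0.57 to 0.37 for Axin2, from -0.27 to 0.13 for Lgr5, from -0.03 to 0.44 for Nkd1, from -0.24 to 0.21 for Lect2 and from -0.47 to 0.01 for Wnt2. The log2 difference of ligand over endothelial markers then ranged from 0.61 to 0.86 for Rspo3, from 0.08 to 0.24 for Wnt2 and from -0.37 to 0.29 for Wnt9b. With sinusoidal markers as the denominator it was 0.87, 0.31 and 0.20. The replicate block changed none of the calls of the 10 genes. Over all genes library totals gave 5846 higher and 868 lower calls (87.1% higher), against 1922 and 1852 (50.9%) with TMM. The low counts of Wnt9b limit what could be detected for that ligand.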

Other observations

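Lists of other liver cell types moved by different amounts. Of 7 tested cholangiocyte markers 4 rose and 0 fell. Spp1 had 217, 127 and 256 CPM in Fam210aHKO and 49.6, 44.8 and 32.7 CPM in Ctrl (log2 fold change 2.24, edgeR adjusted p = 0.000116). Cldn4 had 0.670, 1.65 and 0.702 CPM in Fam210aHKO and 0.0870, 0 and 0 CPM in Ctrl (edgeR adjusted p = 0.00228). With the filter on CPM Cldn4 was not tested, and 3 of 6 markers rose. Cldn7 had 1.81 ± 0.618 CPM in Fam210aHKO and 0.330 ± 0.229 CPM in Ctrl (edgeR adjusted p = 0.00508). Summed levels of 15 Kupffer cell and macrophage markers overlapped, at 505 to 908 CPM in Fam210aHKO and 559 to 741 CPM in Ctrl. Their median log2 fold change was 0.26, and it was 0.04 without Fam210aHKO replicate 3. Of these 15 markers 5 rose and 0 fell. Among them were Trem2, with 3.06, 3.23 and 3.03 CPM in Fam210aHKO against 0.522, 0.162 and 0.605 CPM in Ctrl, Marco, with 17.0, 21.9 and 31.2 CPM against 9.04, 12.3 and 7.93 CPM, and Gpnmb, with 15.9, 22.0 and 22.2 CPM against 0, 0.568 and 0.471 CPM. The stellate cell gene Tcf21 had 6.12 ± 0.288 CPM in Fam210aHKO and 2.76 ± 0.416 CPM in Ctrl (edgeR adjusted p = 0.00318). With library totals 10 of 14 stellate and 10 of 15 macrophage markers were higher.

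Sinusoidal endothelial markers had 3 of 16 lower and 0 higher, with a median of -0.37 and summed levels of 447 to 680 CPM in Fam210aHKO and 687 to 875 CPM in Ctrl. Dpp4, which hepatocytes also express, is part of these sums and of the sinusoidal denominator used for the ligands. It fell to 77.1 ± 10.1 CPM in Fam210aHKO, against 139 ± 7.44 CPM in Ctrl (edgeR adjusted p = 0.00152). The scavenger receptor Stab2 had 49.6 ± 19.2 CPM in Fam210aHKO and 84.8 ± 15.5 CPM in Ctrl, and the lectin Clec4g 43.6 ± 7.40 and 61.0 ± 5.21 CPM, with calls (edgeR adjusted p = 0.0418 and 0.0435) that library totals ended (0.293 and 0.881). When single libraries were left out, 1 to 6 of these 16 markers were lower, and 8 were lower with the replicate block.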
